A study of Mus musculus with 2 samples.

Results

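The 48 genes described here run the cell division cycle and DNA replication, and they were chosen by gene symbol and known role, with all array probes of each gene taken. They fall into 10 genes that act in G1 or at the G1/S transition, 16 genes of S phase and 22 genes of mitosis and its preparation. The array named 30011 genes, of which 20923 had a probe well above background and were tested. Of the 48 cell cycle genes, 47 were tested. The exception was Ccne2, cyclin E2, whose only probe was not well above background in the mutant or the control pools by the filter used, so no fold is given for it.

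RNA of ureters dissected from NMRI mouse embryos at E13.5 was measured on 2 two-colour Agilent arrays, and on each array 1 mutant pool was hybridised against 1 control pool. Mutant pools were Pax2-cre/+;Fgfr1(fl/?);Fgfr2(fl/fl), so that cells in which Pax2 drives Cre recombinase can lose Fgfr2, a receptor for fibroblast growth factors. Control pools were Fgfr1(fl/?);Fgfr2(fl/?), with no Cre listed, and the question mark stands for a wild-type or a floxed allele. By the series' design note, the mutant pool mixed ureters with wild-type and with floxed Fgfr1, so that some mutant ureters can also lack Fgfr1. The design note speaks of a pool for the mutant, and the control RNA of an array is called a pool here in the same sense. Array 1 had female pools with mutant RNA in Cy5 and control RNA in Cy3, and array 2 had male pools with mutant RNA in Cy3 and control RNA in Cy5. The labels do not give the number of embryos in a pool or say that the pools came from separate litters. The p-values and intervals thus rest only on spread between these 2 arrays, which may be technical. With 1 residual and 6.32 prior degrees of freedom, each gene's variance came largely from that spread pooled over all tested genes.

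The labels were compared with 3 kinds of genes before the cell cycle genes were described. On the normalised log2 scale of each channel, the dimmer of 2 overlapping Fgfr2 probes was at 9.48 and 9.54 in mutant pools, against 9.39 and 9.45 in control pools. The brighter Fgfr2 probe had ratios of 0.27 and 0.057 (log2, mutant over control; unadjusted p = 0.318 in limma). The mutant pools were thus not lower at these probes, whose place relative to the floxed segment is unknown here, so they cannot check the deletion. Fgfr1, which some mutant ureters can also lack, had ratios of 0.27 and -0.44 at its brightest probe. Its other probes had 0.026 and 0.51, and 0.17 and -0.16. These values had no common sign, so they cannot check a loss of Fgfr1. Xist, which coats the inactive X chromosome, was level in the pools of the female array, with a ratio of -0.0037. In the pools labelled male the Xist ratio was -1.60, with the mutant level at 8.39 and the control level higher, so these pools were unlike each other in Xist and no pool label was changed for it. Ddx3y, a Y-linked gene, reached 11.88 in the mutant pool of the male array, against 11.57 in its control pool. Eif2s3y, also Y-linked, went the other way there, at 11.22 in the mutant pool against 11.51 in the control pool. On the female array Ddx3y was at 8.15 in the mutant pool against 8.44 in the control pool, and Eif2s3y at 8.27 against 8.41. The main results below are given for each array, so that they can be read without the male array.

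Cells enter the cycle in G1, where cyclin D with Cdk4 or Cdk6 and then cyclin E with Cdk2 phosphorylate the retinoblastoma protein and release E2F transcription factors. E2F activates the genes of S phase, in which the MCM helicase is loaded on origins and started, and DNA is copied from nucleotides made by ribonucleotide reductase and thymidylate synthase. In mitosis cyclin B with Cdk1 starts division, Aurora and Polo kinases build the spindle, and a checkpoint holds sister chromatids together until every chromosome is attached. Fibroblast growth factor signalling through ERK is a known inducer of cyclin D1, and both the epithelium and the mesenchyme of the early ureter proliferate. In a pool of bulk tissue, fewer dividing cells and less RNA per dividing cell cannot be told apart.

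E2F sites are known from promoters of S phase genes, and the cell cycle homology region with the NF-Y box from those of mitotic genes, so 4 promoters are shown that carry them. RefSeq's promoter table (GRCm38.p6; 250 bases before to 50 after the start) had a window for 38 of the 48 genes. E2F letters on either strand (TTCCCGC, and the variants TTGGCGC with TTCGCGC, and lastly TTGCCGC) were in 9 of 13 S genes (69.2%), 3 of 18 mitotic genes (16.7%) and 2 of 7 G1 genes (28.6%), against 9.57% of all 32851 promoter windows. The cell cycle homology region (TTTGAA, either strand) was in 12 of 18 mitotic genes (66.7%) and 1 of 13 S genes (7.69%), against 17.9% of all windows. The NF-Y box (CCAAT, either strand) was in 16 of 18 mitotic genes (88.9%) and 8 of 13 S genes (61.5%), against 37.4% of all windows. Where a gene had more than 1 window, a match in any of them was counted. A match is a description of these letters, not of a site in use. The E2F and CCAAT letters can share bases, and so can neighbouring E2F matches. The 150 bases before the start are given 5′ to 3′ on the gene's strand, with matches in capitals.
Mcm6 (S, E2F and CCAAT), chr1:128359706-128359855, minus strand: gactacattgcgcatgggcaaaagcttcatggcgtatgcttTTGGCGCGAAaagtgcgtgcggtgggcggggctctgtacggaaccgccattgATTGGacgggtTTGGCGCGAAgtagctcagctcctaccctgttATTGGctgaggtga
Cdk1 (mitotic, E2F, cell cycle homology region and CCAAT), chr10:69352913-69353062, minus strand: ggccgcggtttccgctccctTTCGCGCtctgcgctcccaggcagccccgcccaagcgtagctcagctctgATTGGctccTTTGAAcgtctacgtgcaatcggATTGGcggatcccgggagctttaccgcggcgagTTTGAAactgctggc
Kif11 (mitotic, cell cycle homology region and CCAAT), chr19:37376232-37376381, plus strand: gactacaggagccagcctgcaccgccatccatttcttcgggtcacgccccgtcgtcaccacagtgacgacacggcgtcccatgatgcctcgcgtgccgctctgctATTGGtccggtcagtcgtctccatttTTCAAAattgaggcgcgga
Cdc20 (mitotic, cell cycle homology region and CCAAT), chr4:118437344-118437493, minus strand: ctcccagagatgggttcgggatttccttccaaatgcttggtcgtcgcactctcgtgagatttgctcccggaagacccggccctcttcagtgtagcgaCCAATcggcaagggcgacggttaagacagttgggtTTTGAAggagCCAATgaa
The ratios of genes with and without these letters are given as a description, with no test. The 14 genes with E2F letters had a median log2 ratio of -0.047 and the 24 without them -0.057, while the 14 with the cell cycle homology region had -0.034 and the 24 without it -0.059. Of the genes with E2F letters 0 of 14 were lower on both arrays, and of those without them 7 of 24, against 21.4% of all tested genes. Since 9 of the 14 were S genes and 3 were mitotic, motif and class cannot be told apart here. The 27 genes with CCAAT had medians of -0.11 on array 1 and 0.067 on array 2, and the 11 without it had 0.0077 and -0.13. The medians of these groups thus had opposite signs on each array. Of the 27 genes 16 were mitotic, so this contrast too cannot be told apart from that of the classes.

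No cell cycle gene passed the test between mutant and control ureters. All ratios are log2 of mutant over control, after background correction and loess normalisation, for array 1 and then array 2. The mean ratio of the 47 genes lay between -0.22 (Cdt1) and 0.17 (Bub1b). The lower end depended on the processing, since Cdk6, a dim gene, was at -0.52 with the scanner's processed signals and at -0.52 in the authors' deposited table, against -0.20 here. None passed an adjusted p of 0.05 in limma, against 0.0287% of all tested genes. None had an unadjusted p under 0.05 in limma either, against 4.04% of all tested genes, and the lowest was 0.232 for Foxm1. The 95% confidence interval of the mean ratio lay within 1.5-fold either way for 42 of the 47 genes, against 78.9% of all genes. The other 5 were Cdk2, Cdk6, Cdt1, Bub1b and Ttk, each at 1.5-fold or beyond at 1 end of the interval.

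**Figure D1:**
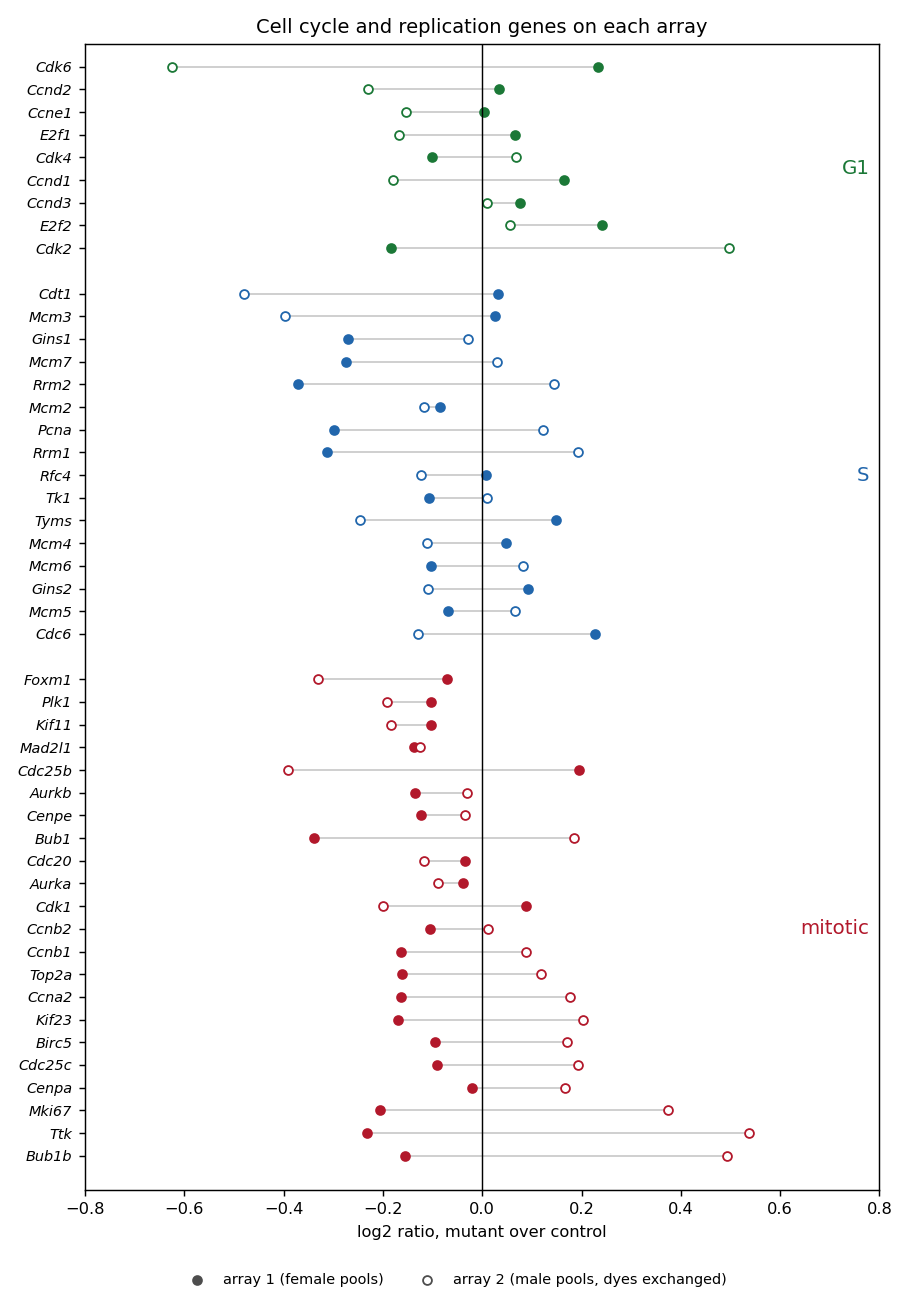
Log2 ratio of mutant over control (x axis) of each of the 47 tested genes on array 1 (filled) and array 2 (open), with genes down the page grouped into G1, S and mitotic and ordered by mean ratio. The filled and the open point lie on opposite sides of 0 for 35 of the 47 genes.

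Most of these genes went opposite ways on the 2 arrays. Of the 47, 35 had opposite signs, against 56.5% of all tested genes. Another 10 were lower on both arrays, close to the 21.4% of all genes, and 2 were higher on both, against 22.1%. The median ratio of the 47 was -0.050 (-0.095 on array 1 and -0.028 on array 2), and that of all tested genes was 0.0044 (-0.00051 and 0.0053). No gene was at least 1.5-fold lower or higher on both arrays, which 0.0956% and 0.296% of all genes were.

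With each array centred on its median in place of loess, 30 of the 47 were lower on both arrays, against 38.1% of all genes. The median was then -0.21, against -0.084 over all genes, and no member passed limma's adjusted p (lowest 0.860). Loess removes differences that follow brightness, and median centring leaves them in.

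The G1 genes lay above 0 on array 1 and below it on array 2 by their medians, 0.067 and -0.15, and their median mean ratio was -0.016. None of the 9 was lower on both arrays, against 21.4% of all genes, and 2 were higher on both (22.2%, close to the 22.1% of all genes). Ccnd1, cyclin D1, was at 14.22 and 14.09 in mutant pools, against 14.05 and 14.27 in control pools. Mutant cyclin D1 was the higher one on array 1 and the lower one on array 2, with ratios of 0.17 and -0.18, a mean of -0.0072 ± 0.24 (SD, n = 2 arrays) and an interval from -0.38 to 0.37. The Ccnd1 probe lies at chr7:152116202-152116261 on mm9, the build of the array design, which names the gene but not the exon or UTR. The other D cyclins were closer to 0 on array 1: Ccnd2 had 0.034 and -0.23, and Ccnd3 had 0.075 and 0.010.

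E2f2, an E2F activator, was the G1 gene with the largest mean ratio of one sign. It was at 11.17 and 11.14 in mutant pools, against 10.93 and 11.09 in control pools, so the groups did not overlap (ratio 0.15 ± 0.13, SD, n = 2; unadjusted p = 0.358 in limma). With processed signals neither E2f2 nor Ccnd3 was higher on both arrays, since array 2 gave -0.0021 for E2f2 and -0.068 for Ccnd3. Ccnd3, at 15.20 and 15.16 in mutant pools against 15.13 and 15.15 in control pools, was the other of the 2 cell cycle genes of 47 with both mutant levels above both control levels, against 12% of all genes. E2f1, the other activator, had ratios of 0.067 and -0.17.

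The widest disagreement between arrays in G1 was that of the kinases. Cdk6 was at 7.25 and 6.57 in mutant pools, against 7.02 and 7.19 in control pools, which gave ratios of 0.23 and -0.62. With the scanner's processed signals, which carry no added offset, its ratios were 0.43 and -1.48. Cdk2, the partner of cyclin E, was at 10.41 and 11.06 in mutant pools, against 10.59 and 10.56 in control pools, with ratios of -0.18 and 0.50. Cdk4 moved little, with ratios of -0.10 and 0.069, and Ccne1, cyclin E1, had 0.0043 and -0.15. On each array all 4 spots of the Cdk2 probe lay on 1 side of 0, as did all 4 of the Cdk6 probe.

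**Figure D2:**
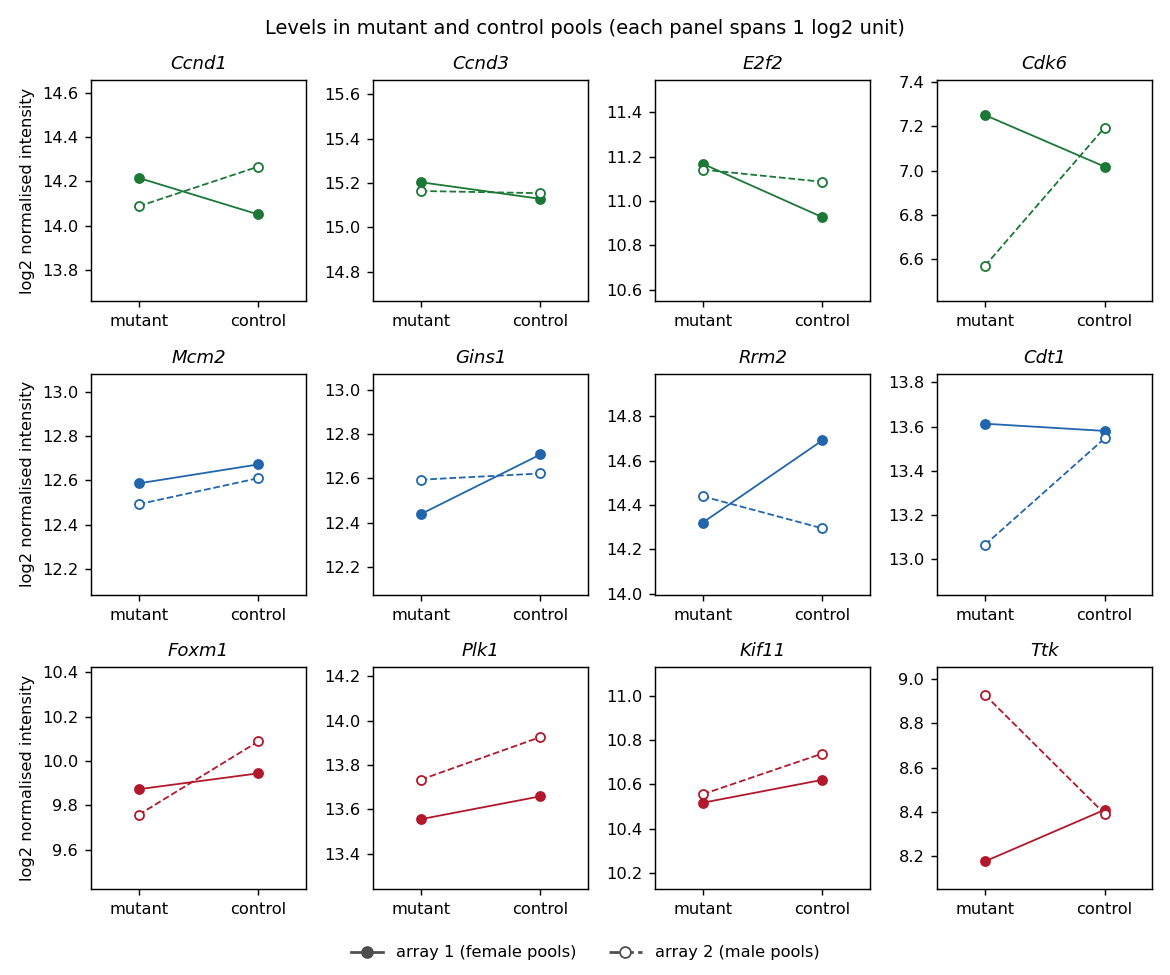
Normalised log2 intensity (y axis, 1 log2 unit in each panel) of 12 cell cycle genes in mutant and control pools of array 1 (filled, solid line) and array 2 (open, dashed line). Lines run the same way on both arrays for Ccnd3, E2f2, Mcm2, Gins1, Foxm1, Plk1 and Kif11 and cross or diverge for Ccnd1, Cdk6, Rrm2, Cdt1 and Ttk.

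On each array 9 of 16 S phase genes were below 0 (50.1% of all genes were so on array 1 and 49.2% on array 2). Of the 16, 2 were lower on both arrays (12.5%, against 21.4% of all genes) and 0 were higher on both, against 22.1%. The other 14 had opposite signs on the arrays (87.5%, against 56.5% of all genes). The S median was -0.059 (-0.077 and -0.069 on the arrays), against 0.0044 over all tested genes (-0.00051 and 0.0053). By the brightest probes the mean ratio of every S gene but Cdc6 (0.049) was below 0, for Mcm5 (-0.00087) and Gins2 (-0.0080) by little. The dimmer probes of Cdc6 and Rfc4 had means of the other sign, -0.13 and 0.099. Mcm2, a subunit of the replicative helicase, was at 12.59 and 12.49 in mutant pools, against 12.67 and 12.61 in control pools, with a ratio of -0.10 ± 0.023 (SD, n = 2; unadjusted p = 0.511 in limma). Gins1, a subunit of the complex that activates the helicase, was at 12.44 and 12.59 in mutant pools, against 12.71 and 12.62 in control pools, with a ratio of -0.15 ± 0.17 (SD, n = 2; unadjusted p = 0.364 in limma). For both genes the mutant levels lay below the control levels without overlap. Their probes lie at chr6:88833619-88833678 and chr2:150756868-150756927 on mm9.

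Unlike Mcm2, the other helicase subunits had opposite signs on the arrays by their brightest probes, though each mean ratio was below 0. Mcm4, Mcm5 and Mcm6 had mean ratios of -0.032, -0.00087 and -0.010. Mcm3 had a mean of -0.19 (0.026 and -0.40) and Mcm7 of -0.12 (-0.27 and 0.029), both further below 0 than Mcm2 at -0.10. The dimmer Mcm3 probe was below 0 on both arrays, at -0.099 and -0.22. The loading factors also disagreed between arrays. Cdt1, which brings the helicase to origins, was at 13.61 and 13.07 in mutant pools, against 13.58 and 13.55 in control pools, so that its low value was that of the mutant pool on array 2 (ratios 0.033 and -0.48). Cdc6, its partner, had ratios of 0.23 and -0.13.

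The other genes that supply nucleotides or serve the fork, Gins1 apart, had opposite signs on the arrays. Rrm2, the small subunit of ribonucleotide reductase, was at 14.32 and 14.44 in mutant pools, against 14.69 and 14.29 in control pools, with ratios of -0.37 and 0.14. Rrm1, its large subunit, followed the same order with -0.31 and 0.19, as did Pcna, the sliding clamp of the polymerases, with -0.30 and 0.12. Tyms, thymidylate synthase, ran the other way, with 0.15 and -0.25. Tk1, thymidine kinase, Rfc4, a clamp loader subunit, and Gins2 had mean ratios between -0.058 and -0.0080. None of the 4 nucleotide genes had the same sign on both arrays.

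Most mitotic genes were below 0 on array 1, 20 of 22 against 50.1% of all genes, and on array 2 it was 10 of 22 against 49.2%. Their medians were -0.11 on array 1 and 0.050 on array 2, and the median of the mean ratios was -0.052. Of the 22, 8 were lower on both arrays (36.4%, against 21.4% of all genes) and 0 were higher on both. Those 8 were Foxm1, Plk1, Kif11, Mad2l1, Aurkb, Cenpe, Cdc20 and Aurka.

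Foxm1, a transcription factor of mitotic genes, had the largest mean ratio among them. It was at 9.87 and 9.76 in mutant pools, against 9.94 and 10.09 in control pools, with a ratio of -0.20 ± 0.18 (SD, n = 2) and an interval from -0.56 to 0.16. Its probe lies at chr6:128324783-128324842 on mm9. The dimmer Foxm1 probe had ratios of 0.015 and -0.27, so it was not lower on both arrays. Plk1, the Polo kinase of mitotic entry and spindle assembly, was at 13.55 and 13.73 in mutant pools, against 13.66 and 13.93 in control pools. Within each array the mutant pool was the lower one, but the mutant pool of array 2 was above the control pool of array 1, so the groups overlapped (ratio -0.15 ± 0.063, SD, n = 2; unadjusted p = 0.349 in limma). Kif11, the kinesin that pushes spindle poles apart and whose promoter is shown above, was at 10.52 and 10.56 in mutant pools, against 10.62 and 10.74 in control pools, with a ratio of -0.14 ± 0.057 (SD, n = 2; unadjusted p = 0.362 in limma).

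Mad2l1, a spindle checkpoint protein, was at 12.77 and 12.65 in mutant pools, against 12.91 and 12.77 in control pools, with a ratio of -0.13 ± 0.0075 (SD, n = 2). This match of the arrays was that of its brightest probe, and its other probes are given below. Cdc20, the activator of the anaphase-promoting complex, was at 14.10 and 14.07 in mutant pools, against 14.13 and 14.19 in control pools, with a ratio of -0.076 ± 0.057 (SD, n = 2). Cenpe, a kinetochore kinesin, had ratios of -0.12 and -0.036. The Aurora kinases Aurka and Aurkb had -0.064 ± 0.037 and -0.083 ± 0.074 (SD, n = 2 each). Aurkb lay between 6.69 and 6.90 in the 4 channels, near the level of 5.64 that the offset of the background correction gives alone, and the offset pulls ratios of dim probes towards 0. With processed signals the mean ratio of Aurkb was -0.26, and in the authors' deposited table it was -0.20.

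Beside Cdk6, the largest disagreement between arrays was that of Ttk. Ttk, the Mps1 kinase that starts the checkpoint signal, was at 8.18 and 8.93 in mutant pools, against 8.41 and 8.39 in control pools, with ratios of -0.23 and 0.54. Bub1b, another checkpoint kinase-like protein, had ratios of -0.16 and 0.49. Cdc25b, a phosphatase that activates Cdk1, ran the other way with 0.19 and -0.39, as did Cdk1 itself with 0.088 and -0.20. The cyclins Ccna2, Ccnb1 and Ccnb2 had mean ratios of 0.0062, -0.038 and -0.047.

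Widely used markers of proliferating cells did not pass the test. Mki67, the Ki-67 antigen, was at 14.66 and 15.08 in mutant pools, against 14.87 and 14.71 in control pools, with ratios of -0.21 and 0.38. The mutant pools gave both the lowest and the highest of its 4 values. Top2a, which untangles sister chromatids, had -0.16 and 0.12, and Birc5, the survivin subunit of the chromosomal passenger complex, had -0.095 and 0.17. The remaining mitotic genes, Bub1, Cdc25c, Cenpa and Kif23, had mean ratios between -0.077 and 0.073 and opposite signs on the arrays.

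Across the 47 genes as a whole, 6 had both mutant levels below both control levels, against 11.5% of all genes. They were Mcm2, Gins1, Foxm1, Mad2l1, Cdc20 and Kif11. All spots lay below 0 on both arrays for 4 genes, Mcm2, Plk1, Mad2l1 and Kif11, against 7.06% of all genes, and above 0 on both for 0 genes, against 7.85%. The spots of a probe cover printing and scanning error, not differences between pools.

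The ratios of the 2 arrays ran against each other among these genes. Across the 47, Pearson's correlation of array 1 with array 2 was -0.63 and Spearman's -0.70, where the 20923 tested genes gave -0.024 and -0.13. Within the classes Pearson's correlation was -0.69 for G1 (9 genes), -0.69 for S (16 genes) and -0.66 for the mitotic genes (22 genes). The points of a correlation share the pools, dyes and slide of their array and are not independent. A ratio of array 1 below that of array 2 was found for 15 of 22 mitotic genes, 8 of 16 S genes and 2 of 9 G1 genes, against 50.2% of all genes. Dye, sex of the pools and array changed together between the arrays, and their parts cannot be told apart.

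**Figure D3:**
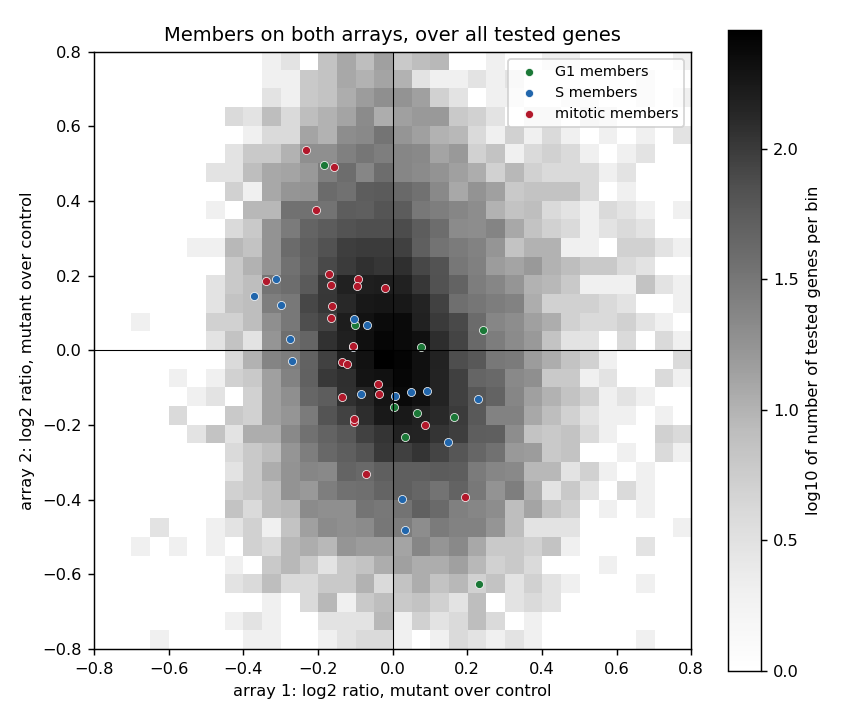
Log2 ratio of mutant over control on array 1 (x axis) against array 2 (y axis) for the 47 genes in colour, over the number of tested genes in each bin in grey (log scale). The coloured points run from upper left to lower right, with a Pearson correlation of -0.63, and most mitotic points lie left of 0.

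Several of these genes were measured by more than 1 probe. The 4 probes of Cdk4 had the same sign on each array, with ratios between -0.34 and -0.10 on array 1 and between 0.069 and 0.26 on array 2. The 3 probes of Birc5 also had the same sign on each array, with mean ratios of 0.038, 0.12 and 0.15. Both probes of Mki67 were below 0 on array 1 and above 0 on array 2, at -0.21 and 0.38 for the brighter and -0.040 and 0.079 for the other. The 3 probes of Cdk1 had means of -0.056, -0.060 and -0.019. The brighter and the dimmer Foxm1 probe differed in sign on array 1 (-0.072 and 0.015) and were both below 0 on array 2 (-0.33 and -0.27). Those of Mcm3 also differed in sign on array 1 (0.026 and -0.099) and were both below 0 on array 2 (-0.40 and -0.22).

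Probes of some further genes also disagreed. The brightest Ccnb1 probe had a mean of -0.038 and its others 0.29 and 0.093. The dimmer probe of Cdc6 had -0.28 and 0.011, that of Rfc4 -0.22 and 0.42, that of Ccne1 -0.17 and 0.17, and that of Ccnd3 0.25 and -0.13. The next Tk1 probe had 0.0095 and -0.019, and the remaining one was not well above background.

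The probes of Mad2l1 and Kif23 are shown because the array 2 ratios of probes of 1 gene differ most in these 2 genes. The first 30 of their 60 bases, as the array design gives them, are as follows, with mm9 positions.
Mad2l1, brightest probe, chr6:66490836-66490895: cgaaatgcagcagtaagacacatttctctt
Mad2l1, middle probe, chr6:66490355-66490414: agagaggcagggaggacagctttactattc
Mad2l1, dimmest probe, chr6:66490067-66490126: tgtgtgttattgttccatttcttgggttct
Kif23, brightest probe, chr9:61767492-61767732: atcggttcagtttactgatattgagacttt
Kif23, other probe, chr9:61775096-61775155: ggtaattgacgtgtatttgtcctatattca
The brightest Mad2l1 probe had -0.14 and -0.13, while the middle one had -0.15 and 0.45 and the dimmest -0.27 and 0.76. The brightest Kif23 probe had -0.17 and 0.20 and the other 0.17 and -0.86. That other probe was dim, at 7.48 and 6.87 in mutant pools, against 7.31 and 7.74 in control pools. Array 1 put all 3 Mad2l1 probes below 0, and array 2 put 1 below and 2 above.

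Other genes of the same pathway also gave no call. The list of further cell cycle genes held 89 genes, of which 88 were tested. None passed limma's adjusted p and none had an unadjusted p under 0.05 in limma. Of the 88, 18 were lower on both arrays (20.5%, close to the 21.4% of all tested genes) and 4 were higher (4.55%, against 22.1%). The other 66 had opposite signs (75%, against 56.5%). The medians of the 88 were -0.11 (array 1) and 0.092 (array 2). Their ratios had a Pearson correlation of -0.51 between the arrays.

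Beside the counts of each further list, 21.4% of all tested genes were lower on both arrays and 22.1% were higher. Of 10 tested CDK inhibitors and pocket proteins, which hold cells in G1, 0 were lower and 2 higher (20%) on both arrays. The higher ones were Cdkn2b, the p15 inhibitor of Cdk4 and Cdk6, at 0.34 and 0.11, and Cdkn2d, the p19 inhibitor, at 0.12 and 0.31 (lowest unadjusted p = 0.186 in limma). Of 13 further E2F factors and subunits of the DREAM complex, which represses cell cycle genes, 5 were lower (38.5%) and 0 higher on both. E2f8, Tfdp2 and E2f3 had mean ratios of -0.21, -0.18 and -0.12. Of 35 further replication genes, 11 were lower on both arrays (31.4%) and 2 higher (5.71%). Below 0 were 28 of the 35 on array 1, against 50.1% of all genes, and 16 on array 2, against 49.2%. Pold1, the catalytic subunit of polymerase delta, had -0.012 and -0.47, Cdc7, the kinase that fires origins, had -0.15 and -0.24, and Mcm10 had -0.13 and -0.24. Of 30 further mitotic genes, 2 were lower (6.67%) and 0 higher on both. The 2 were Ncapd2, a condensin subunit, at -0.16 ± 0.036 and Prc1, which bundles spindle microtubules, at -0.13 ± 0.11 (SD, n = 2 each). The medians of these mitotic genes were -0.15 (array 1) and 0.11 (array 2).

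Markers of other cell types also had ratios away from 0 in the same pools, although few passed the test. Of the marker lists given here, 2 of 20 leukocyte genes passed limma's adjusted p, S100a8 and S100a9, and 0 passed of the 19 erythroid, 13 skeletal muscle, 15 neuronal, 12 epithelial and 12 mesenchymal genes. The counts on both arrays stand against 21.4% of all genes lower and 22.1% higher. Markers of the ureter itself were present: all 12 epithelial and all 12 mesenchymal and smooth muscle markers were well above background by the filter used. The epithelial list had medians of -0.24 on array 1 and -0.37 on array 2 (8 of 12 lower and 2 higher on both), and the mesenchymal list 0.0056 and -0.37 (5 lower and 3 higher). Leukocyte markers had medians of 0.55 and 0.60, with 17 of 20 higher on both arrays. Their summed level on the linear scale was 43717 and 76910 in mutant pools, against 34910 and 45245 in control pools. Erythroid markers had medians of 0.86 and 0.23, with 15 of 19 higher on both and summed levels of 855794 and 820736 in mutant pools, against 333007 and 617904 in control pools. Skeletal muscle markers had a median of 0.33 on each array (9 of 13 higher on both) and neuronal markers had 0.37 and 0.10 (10 of 15 higher on both). Hbb-bs of the erythroid list and Myf5 of the muscle list were not tested. The part of these cells in the cell cycle ratios was not tested.

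**Figure D4:**
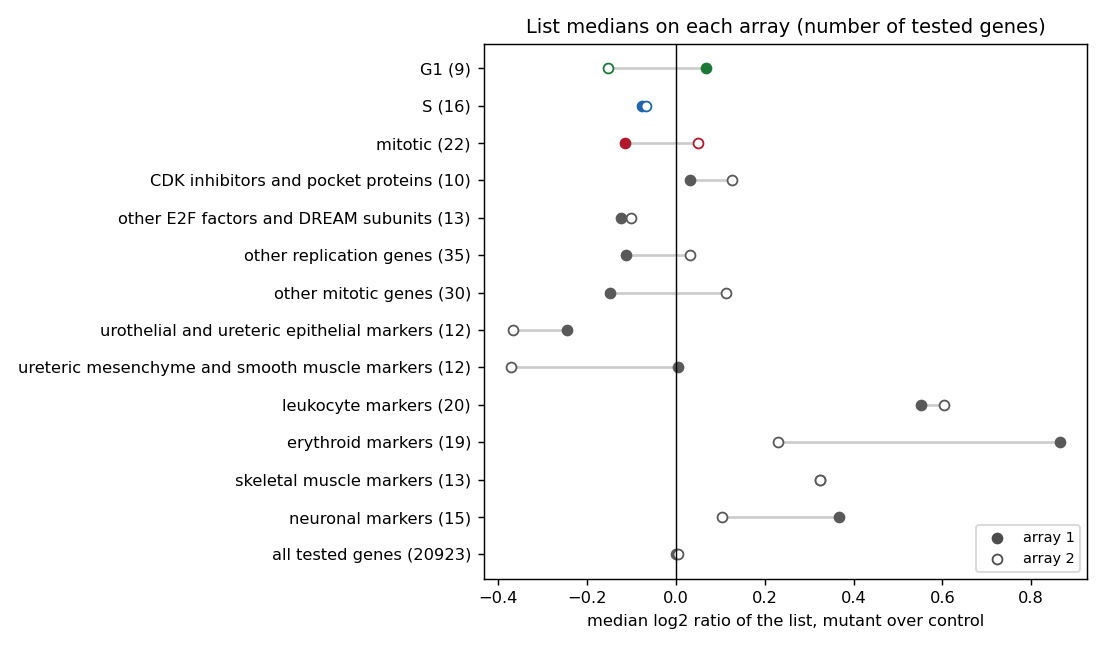
Median log2 ratio of mutant over control (x axis) on array 1 (filled) and array 2 (open) for the 3 classes of cell cycle genes, the further cell cycle lists, the cell type marker lists and all tested genes, with the number of tested genes in brackets. The cell cycle medians lie between -0.15 and 0.13, while the leukocyte medians are 0.55 and 0.60 and the erythroid medians 0.86 and 0.23.

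**Figure D5:**
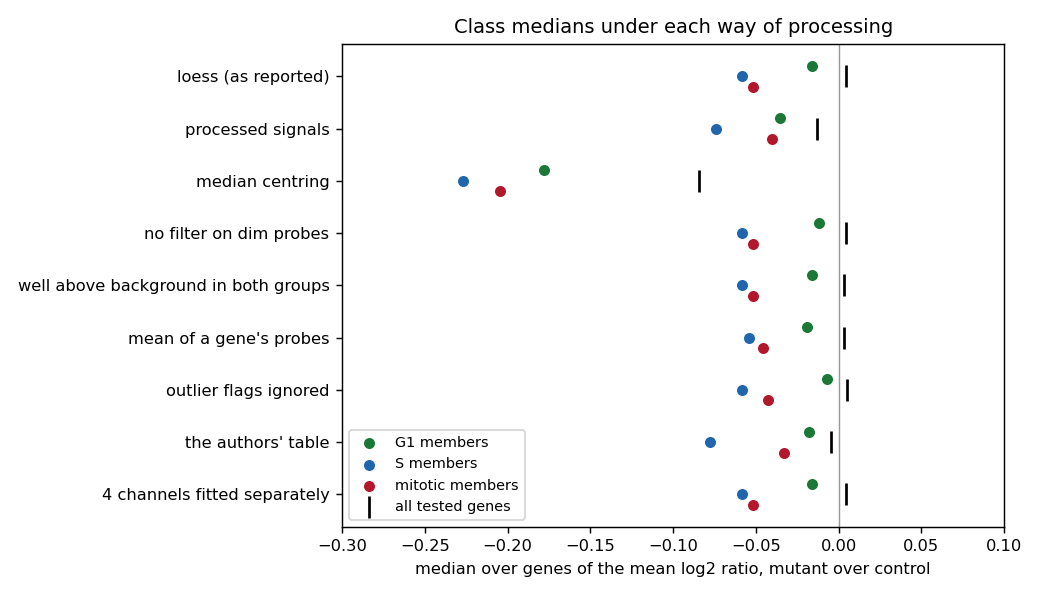
Median over genes of the mean log2 ratio of mutant over control (x axis) for G1, S and mitotic genes (coloured points) and all tested genes (black bars) under each way of processing (rows). The class medians lie between -0.078 and -0.0072 except with median centring, where they lie between -0.23 and -0.18 and the median of all genes is -0.084.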

How the data were processed

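Ureter RNA (150 ng for labelling) was hybridised to arrays with 39429 probes in 4 copies, read with Agilent Feature Extraction 10.7.3.1 according to the submitters' processing notes. Mean and background signals are unnormalised intensity values, per the file headers. Processed intensity values are background-subtracted, detrended and LOWESS-normalised between dyes, and a log10 ratio is made from them, per the file headers. The authors' deposited series table gives a score, which the values show to be a linear fold with a sign. Its direction matched mutant over control (correlation with processed signals 0.972 and 0.99) and its medians were 1. How it was made and centred stays unknown. Probe positions are on mm9, per the file headers.

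Background was corrected by normexp (offset 50) and dyes by loess (span 0.3, controls weighted 0) with limma 3.58.1 in R 4.3.3. Outlier spots (3.35% and 3.05%) were left out, copies averaged, and the array 2 ratio turned. Probes were tested if a share over 0.5 of their spots was well above background in mutant or control on both arrays (27493 probes). The brightest stood for the gene. RefSeq accessions matched 28328 probes and gave their gene names, whether or not the name changed. lmFit and eBayes tested all genes against 0, with Benjamini-Hochberg adjustment at 0.05 (1 residual and 6.32 prior degrees of freedom). Levels follow Aquantile normalisation. No spot was saturated (0), and the number of arrays limits precision. The code was tested on simulated data.

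Members, lists and the naming rule were chosen with earlier results of these data known. Per class, the rule gives array values for the 6 genes of one sign with the largest mean ratio and the 3 with the largest difference between arrays, describes every probe of genes with several, and names 3 genes per further list. Motifs, printed sequences, interval, spot and overlap counts, and other members' array values were chosen after values were seen. Alternatives were background correction, normalisation, filters, probe averaging, the authors' table and leaving out an array. Both arrays shared 1 slide, which could not be tested.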

Additional observations from a re-analysis of the deposited data

Results flagged for a closer look

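Some results had opposite directions in the female pools of array 1 and the male pools of array 2, with 1 array for each sex, so that the differences were not tested. The median ratio of the G1 genes differed by 0.22 between array 1 and array 2 (0.067 and -0.15), and that of the mitotic genes by -0.16 (-0.11 and 0.050). A pair of single genes went past the SD of all genes (0.208 on array 1 and 0.325 on array 2) in opposite ways on the arrays, Cdk6 with a difference of 0.86 (0.23 and -0.62) and Ttk with -0.77 (-0.23 and 0.54). The bound for single genes was set after values were seen.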

How the results depend on the processing

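No cell cycle gene was called under any of the 8 alternatives that give a test. The count of calls over all genes was 6, and it was 11 with processed signals, 0 with median centring, 0 with no filter on dim probes, 12 when both groups had to be well above background and 11 with outlier flags ignored. It was 0 when the 4 channels were fitted apart. Unadjusted limma p under 0.05 was then met by 853 genes (median centring), 1076 (no filter) and 666 (channels). With processed signals 17 of the 47 cell cycle genes were lower on both arrays and 1 was higher (Cenpa, not E2f2 or Ccnd3). The shares of all genes moved too, to 25.2% lower and 19.7% higher. The S median was then -0.074, and Cdk6 and Aurkb were at -0.52 and -0.26. With median centring 30 were lower and 0 higher, against 38.1% and 15.5% of all genes. The medians were -0.21 (all cell cycle genes), -0.18 (G1), -0.23 (S) and -0.20 (mitotic), while Ccnd3 was at -0.13. With the mean of a gene's probes 1 was higher on both arrays, against 22.4% of all genes, and Mad2l1 was at 0.088. In the authors' table the S median was -0.078, Ccnd1 was at 0.00028, and Cdk6 and Aurkb were at -0.52 and -0.20. The cause was not tested. On single arrays the S median was -0.077 to -0.069, Rrm2 -0.37 to 0.14, Rrm1 -0.31 to 0.19, Cdk6 -0.62 to 0.23, Cdk2 -0.18 to 0.50, Ccnd1 -0.18 to 0.17, Cdt1 -0.48 to 0.033, Ttk -0.23 to 0.54, Bub1b -0.16 to 0.49 and Cdc25b -0.39 to 0.19. Leaving out an array allows no test and no count over both arrays. The main test already uses the pairing of a mutant and a control pool on an array, since each array enters as 1 ratio. No further pairing was possible, because the arrays form 1 group. Signal over background limits Ccne2, which was not tested, and Aurkb and Cdk6, whose levels were low.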
